A study of Mus musculus with 4 samples.

Results

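The Kcn genes encode the pore-forming and auxiliary subunits of potassium channels. They were taken as all probes of the scanner table whose annotated gene symbol starts with Kcn. This gave 173 probes of 45259, for 88 genes of the 19057 named on the array. The cells were neural stem and progenitor cells, whose RNA was read on Illumina bead arrays, from the neocortex of Cre/LoxP-based conditional transgenic mice of the C57BL/6 strain, grown as neurospheres in EGF and FGF2 at 20 ng/ml each and harvested 5 days after plating. The design asked which transcripts differ between cells overexpressing Bmi1, a polycomb subunit that sustains self-renewal, and transgenic control cells, with 2 biological replicates in each group and 1 array per replicate. The sources used here do not give the promoter that drives Cre, whether the control cells carry the Bmi1 transgene, the age of the animals or how many were behind a culture, so p-values measure the spread between cultures as labelled.

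Potassium channels let potassium leave or enter the cell along its gradient and so set the resting membrane potential and end action potentials. Voltage-gated channels open on depolarisation, calcium-activated channels on a rise of calcium inside the cell, and two-pore-domain channels carry the background leak, while inward rectifiers hold the cell near the potassium equilibrium potential. Auxiliary subunits change the gating or the trafficking of a pore. In the forebrain, glia are known for large resting potassium conductances and neurons for a wide set of voltage-gated channels.

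The names of the groups are not settled. In the deposited processed table, the values given for control samples ranked the probes as the scanner arrays headed as Bmi1 cells did (Spearman correlation 1 after rounding), and the values given for Bmi1 samples as the arrays headed as controls did. Groups are named here by the scanner headers, and every direction below turns if the processed table is right. Between 16495 and 18242 probes were detected per array, fewest on the second array labelled Bmi1, whose mean signal of 191 was also the lowest (215 to 233 on the others). Xist, the noncoding RNA that coats an inactive X chromosome, read 115 to 971 over its 4 probes on control array 1 and at most 8.4 on the other arrays. The brighter probe of Eif2s3y, a Y-linked gene, read -1.8 on control array 1 and 205 to 239.6 on the other 3, so control array 1 differed in these sex-linked transcripts from its own replicate and from both arrays labelled Bmi1. Of 12 progenitor markers, 9 of the 11 with a probe were detected, among them the glutamate transporter Slc1a3, the filament protein Vim and the Notch target Hes5, while Pax6 and Prom1 were not detected. Among the 9 detected, 4 were higher and 5 lower on the arrays labelled Bmi1, with a median log2 difference of -0.01. Only Notch1, which was higher, had an unadjusted limma p under 0.05, where 12.2% of all features were higher at that p. After adjustment 0 of the 9 passed. Markers of other cell types are given further below.

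A smaller share of the potassium channel genes than of all named genes was detected in these cultures. A gene was called detected when at least 1 of its probes had a detection p under 0.05 on 2 or more of the 4 arrays. By this measure 29 of the 88 Kcn genes (33.0%) were detected, against 52.7% of all named genes on the array, and 35 of the 173 Kcn probes (20.2%) against 44.4% of all probes with 1 gene name. Of the other 59 genes, 42 were detected on no array and 17 on 1 array by some probe, and 30 of the 59 were read by a single probe. A single array detected 34 to 42 Kcn probes, the most on control array 1.

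**Figure D1:**
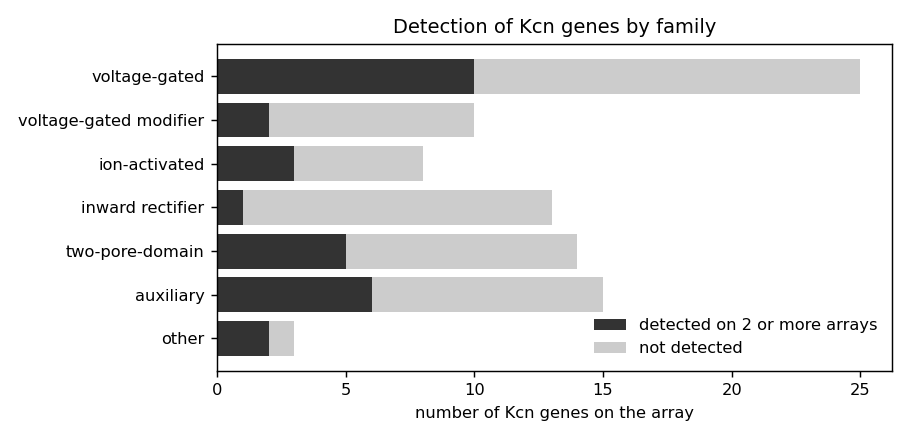
Number of Kcn genes detected on 2 or more arrays (dark) and not detected (light) in each family, counted over all 88 genes. Voltage-gated pores had 10 detected members of 25 and inward rectifiers 1 of 13.

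The families differed in how many members were detected. Of 25 voltage-gated pore genes, 10 were detected, of 14 two-pore-domain genes 5, of 8 ion-activated genes 3, and of 13 inward rectifiers 1. Of the 10 modifier subunits, which do not form a channel alone but alter others, 2 were detected (Kcnf1 and Kcnv1), and of 15 auxiliary subunits 6. Of the 3 remaining genes, Kcnrg, a regulator of channel assembly, and Kcnq1ot1, a long noncoding RNA of the imprinted Kcnq1 region, were detected, while the antisense transcript Kcnmb4os1 was not. Single genes next to the detection limit show how narrow it was. Kcnq5 counted as detected with signals of 1.2 and 8.3 on control arrays 1 and 2 and 9.5 and 0.7 on the arrays labelled Bmi1. Kcnj2, an inward rectifier, did not, with 5.2, 12.2, 0.3 and 0.4 in the same order, above the limit on control array 2 only.

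An auxiliary subunit was detected where its pore did not pass the detection limit. Kcnmb4 encodes the beta4 subunit of the large-conductance calcium-activated channel and was detected on all 4 arrays by both of its probes. Its brighter probe read 389 and 572 on the control arrays, then 411 and 230 on the arrays labelled Bmi1. Kcnma1, the pore of that channel, was not detected on any array by any of its 3 probes, whose signals ran from -4.1 to 7.4. Among them was a probe near the limit, at 7.2 and 7.3 on the controls and 5.9 and 5.4 on the arrays labelled Bmi1. Its detection p was 0.0609 to 0.123. A probe reports 1 part of a transcript, and the sources used here do not say which exons these 3 read.

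**Figure D2:**
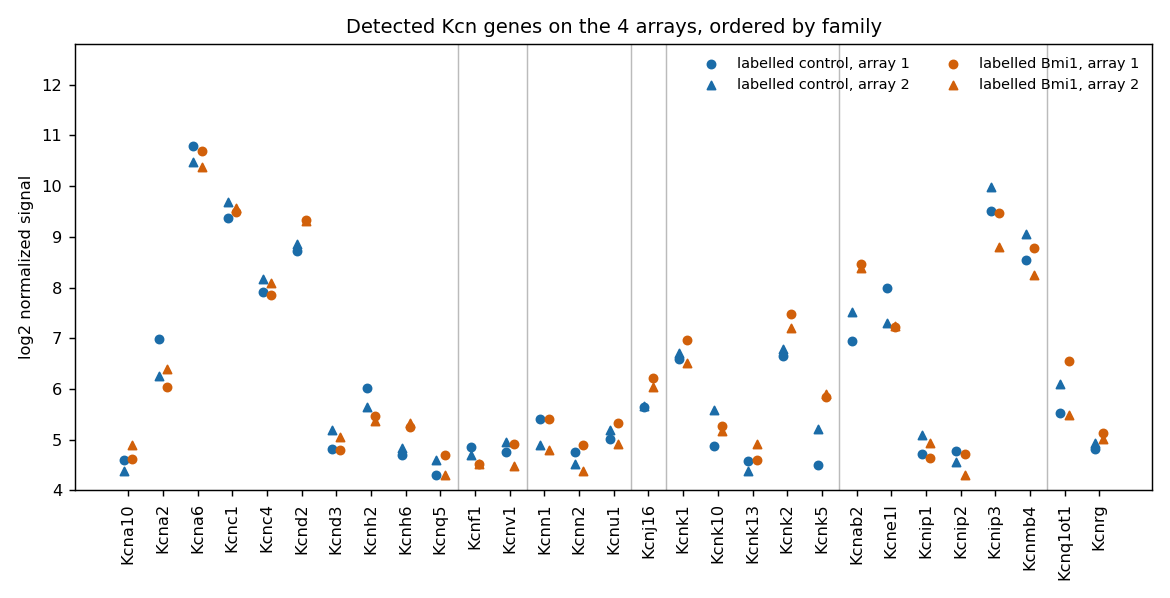
Normalized log2 signal of the kept probe of each of the 29 detected Kcn genes on each array, ordered by family; circles and triangles are the first and second array of a group, blue for labelled control and orange for labelled Bmi1. Many genes lie near the floor of the scale, and the 2 arrays of a group often lie as far apart as the groups do.

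Between the groups, no Kcn gene passed the test. With limma and Benjamini-Hochberg adjustment over all 12809 detected features, 0 of the 29 Kcn genes and 0 of all features had an adjusted p under 0.05, and the smallest adjusted p of a Kcn gene was 0.133, the smallest of any feature as well. At an unadjusted p under 0.05 there were 6 Kcn genes (20.7%), next to 22.0% of all features, so their share was near the background. All 6 were higher in the arrays labelled Bmi1, where 12.2% of all features were higher and 9.76% lower at that p. The 6 were the auxiliary subunit Kcnab2, the two-pore channels Kcnk5 and Kcnk2, the voltage-gated channels Kcnd2 and Kcnh6, and the inward rectifier Kcnj16. Without control array 1 only 2 Kcn genes had an unadjusted p under 0.05, Kcnab2 and, in the other direction, Kcnip3, next to 8.33% of all features.

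As a list the Kcn genes did not lean either way. Their median log2 difference was -0.0044, next to 0.01 over all features, with 14 genes above 0 (48.3%) and 15 below, where 50.9% of all features lay above 0. The median was -0.13 without the first array labelled Bmi1 and 0.11 without the second. The median absolute difference was 0.21, against 0.28 over all features, and the median distance between the 2 arrays of a group was 0.28 in either group. Over all features that distance was 0.20 for the controls and 0.27 for the arrays labelled Bmi1. These are distances between single arrays, while the differences are between means of 2 arrays, so the sizes are not directly comparable. Both arrays of 1 group lay beyond both arrays of the other for 13 of the 29 genes (44.8%), next to 54.8% of all features, 9 of them higher and 4 lower than the controls, where 28.6% of all features were higher and 26.2% lower.

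**Figure D3:**
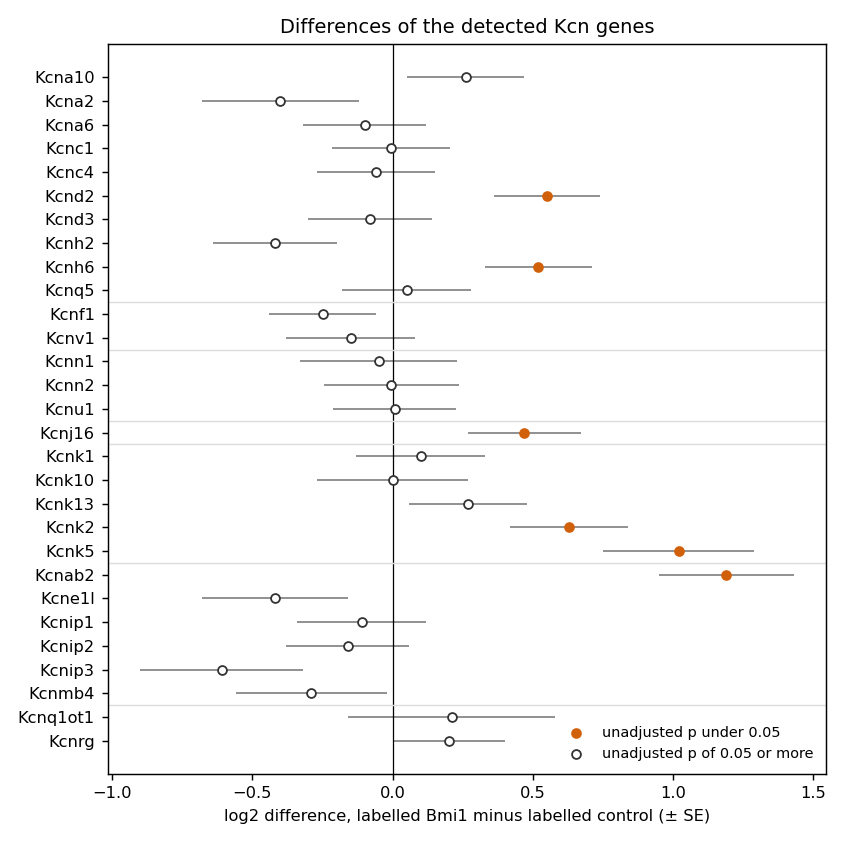
Log2 difference of each detected Kcn gene, arrays labelled Bmi1 minus arrays labelled control, with the standard error of the limma fit on 2 arrays per group; filled points have an unadjusted p under 0.05, lines part the families, and Kcnf1 was not detected on either array labelled Bmi1. The 6 filled points all lie to the right, from 0.47 for Kcnj16 to 1.19 for Kcnab2, and none passed after adjustment.

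Among the voltage-gated pores, 3 members of the Shaker group were detected, none with an unadjusted p under 0.05. Kcna6 encodes Kv1.6, a delayed rectifier. Its signal was 1839 and 1534 on the control arrays, then 1621 and 1133 on the arrays labelled Bmi1, so the groups overlapped. The log2 level was 10.63 ± 0.21 for the controls and 10.53 ± 0.22 for the other group (mean ± SD, n = 2 each), a difference of -0.10 (SE 0.22, limma adjusted p = 0.827). Kcna2, which encodes Kv1.2 of axonal and juxtaparanodal membranes, read 121 and 71.2 on the control arrays, then 48.1 and 51.7 on the others. Its groups did not overlap in signal but did after normalization, and the log2 difference was -0.40 (SE 0.28, limma adjusted p = 0.444). That difference was -0.04 without control array 1 and -0.76 without control array 2. Kcna10, a further member of the group, lay at the limit of detection with signals of 3.4 to 12.0.

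The Shaw channels Kcnc1 and Kcnc4, whose fast kinetics allow rapid firing in neurons, differed by less than the spread between replicates. Kcnc1 read 693 and 883 on the control arrays, then 696 and 627 on the arrays labelled Bmi1, with the second control array the highest. Its log2 means were 9.53 in both groups, with a difference of -0.0063 (SE 0.21, limma adjusted p = 0.989). Kcnc4 read 248, 305, 209 and 205 in the same order of arrays. Its groups did not overlap in signal but overlapped after normalization, where the log2 difference was -0.06 (SE 0.21).

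Kcnd2 encodes Kv4.2, the pore of the A-type current that delays firing in dendrites, and its probes did not read alike. The brighter one by mean read 445 and 499 on the control arrays, then 625 and 526 on the arrays labelled Bmi1, and the groups did not overlap. Its log2 values were 8.79 ± 0.09 and 9.33 ± 0.01 (mean ± SD, n = 2 each), a difference of 0.55 (SE 0.19, unadjusted p = 0.0241, limma adjusted p = 0.175). The other probe read 562 and 395 on the control arrays, then 316 and 327 on the arrays labelled Bmi1, lower there in signal. After normalization its groups overlapped, with a difference of -0.24 (SE 0.25, limma adjusted p = 0.638). The direction for Kcnd2 therefore depends on the probe, and the difference between its probes was not tested. The related pore Kcnd3 was close to the floor, with signals of 11.3 to 23.9 and a log2 difference of -0.08 (SE 0.22).

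Genes of the ether-a-go-go group differed in sign. Kcnh6, which encodes the ERG2 channel, was dim on all arrays, at 10.3 and 14.1 on the controls and 21.6 and 19.1 on the arrays labelled Bmi1. The groups did not overlap, and the log2 difference was 0.52 (SE 0.19, unadjusted p = 0.0301, limma adjusted p = 0.188). With an offset of 50, with or without further background correction, it was 0.26 and no longer had an unadjusted p under 0.05. Kcnh2, which encodes the ERG1 channel of cardiac repolarisation, read 54.0 and 39.8 on the controls and 27.2 and 19.7 on the others. Both arrays labelled Bmi1 lay below both controls, at a log2 difference of -0.42 (SE 0.22, limma adjusted p = 0.301). The difference was -0.23 without control array 1 and -0.25 with an offset of 50, with or without further background correction. Its second detected probe went the other way, with 17.8 and 8.0 against 12.5 and 15.9 and a log2 difference of 0.19 (SE 0.24). Of the Kcnq pores, Kcnq5, which contributes to the M-type current in neurons, was the one detected, with a log2 difference of 0.05 (SE 0.23).

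The modifier subunits were dim. Kcnf1 read 13.7 and 10.6 on the controls and 6.3 and 5.9 on the arrays labelled Bmi1, where it was not detected on either array. Set against the lowest signal detected on those arrays, the mean of the controls was at least 1.09-fold higher. That bound leaves out the spread of the replicates. The log2 difference was -0.25 (SE 0.19, limma adjusted p = 0.482), and it was 0.03 with median scaling. Kcnv1 read 11.6 and 17.0 against 13.8 and 5.3, so its groups overlapped.

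Among the two-pore-domain channels, all 5 detected genes had a log2 difference above 0, from 0.00019 for Kcnk10 to 1.02 for Kcnk5. Over all features 50.9% lay above 0. Of the 5 genes, 2 had an unadjusted p under 0.05, next to 22.0% of all features. The sign was not firm for Kcnk10, at -0.01 with an offset of 50, nor for Kcnk1, at -0.13 without the first array labelled Bmi1. Kcnk5 encodes TASK-2, a leak channel opened by alkaline pH. It read 6.3 on control array 1, where it was not detected, and 24.7 on control array 2, against 40.3 and 33.6 on the arrays labelled Bmi1. The log2 means were 4.86 ± 0.50 and 5.88 ± 0.04 (mean ± SD, n = 2 each), a difference of 1.02 (SE 0.27, unadjusted p = 0.0061, limma adjusted p = 0.134). The difference was 0.66 without control array 1 and 1.37 without control array 2. With an offset of 50, with or without further background correction, it was 0.55. The other 2 probes of Kcnk5 were not detected on 2 or more arrays.

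Kcnk2 encodes TREK-1, a leak channel opened by stretch and lipids. Its signals of 92.4 and 110 on the controls and 155 and 102 on the arrays labelled Bmi1 overlapped before normalization. After it they did not, at 6.71 ± 0.10 against 7.34 ± 0.19 on the log2 scale (mean ± SD, n = 2 each), a difference of 0.63 (SE 0.21, unadjusted p = 0.0175, limma adjusted p = 0.159). The groups of Kcnk2 were thus apart only on the normalized scale. Kcnk1, which encodes TWIK-1, had 2 detected probes of unequal size. The brighter read 88.3 and 105 against 106 and 57.9, with overlapping groups and a log2 difference of 0.10 (SE 0.23). The dimmer read 32.9 and 37.7 against 63.6 and 46.9, with both arrays labelled Bmi1 above both controls and a difference of 0.76 (SE 0.19, unadjusted p = 0.00512, limma adjusted p = 0.142). Kcnk10, which encodes TREK-2, read 13.9 and 37.5 on the controls, farther apart than the 22.0 and 16.3 of the other group. Kcnk13, which encodes THIK-1, lay at the limit of detection with 3.4 to 12.1.

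The only detected inward rectifier was Kcnj16, which encodes Kir5.1 and forms channels together with Kir4.1 in glia. It read 36.9 and 41.0 on the controls and 56.1 and 37.6 on the arrays labelled Bmi1, which overlapped before normalization. On the log2 scale the means were 5.65 ± 0.02 and 6.12 ± 0.13 (n = 2 each), a difference of 0.47 (SE 0.20, unadjusted p = 0.0476, limma adjusted p = 0.224). It was 0.30 with an offset of 50 and 0.29 with that offset and no further background correction. In neither setting was its unadjusted p under 0.05. The Kir4.1 gene, Kcnj10, was not analysed here.

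Ion-activated pores were near the floor and showed no difference beyond the spread of replicates. Kcnn1 and Kcnn2 encode small-conductance calcium-activated channels that shape the pause after a spike. Kcnn1 read 28.8 and 15.5 on the controls and 25.5 and 10.3 on the others, where the first array of each group was the higher. Its log2 difference was -0.05 (SE 0.28), and that of Kcnn2, detected on 1 array of each group, was -0.0044 (SE 0.24). Kcnu1, which encodes the Slo3 channel known from sperm, read 17.4, 24.3, 23.3 and 12.1, with a difference of 0.0071 (SE 0.22).

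The auxiliary subunits held both the highest and the lowest difference of the whole set. Kcnab2 encodes a cytoplasmic beta subunit of the Shaker channels with an aldo-keto reductase fold, which promotes their delivery to the axon. It read 118 and 192 on the controls and 330 and 254 on the arrays labelled Bmi1, so both arrays of that group lay above both controls. The log2 means were 7.23 ± 0.40 and 8.42 ± 0.06 (mean ± SD, n = 2 each), a difference of 1.19 (SE 0.24), or 2.28-fold, with an unadjusted p of 0.00159 and a limma adjusted p of 0.133. The difference ranged from 0.90 without control array 1 to 1.47 without control array 2. The other genes of its class, Kcnab1 and Kcnab3, were not detected on any array.

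Of the auxiliary subunits that bind Kv4 pores, Kcnip1, Kcnip2 and Kcnip3 were detected and Kcnip4 was not. Kcnip3 encodes a calcium sensor also known as the transcriptional repressor DREAM. It read 757 and 1090 on the controls and 688 and 350 on the arrays labelled Bmi1, with no overlap of the groups and the second array labelled Bmi1 far below the first. The log2 means were 9.74 ± 0.35 and 9.13 ± 0.48 (mean ± SD, n = 2 each), a difference of -0.61 (SE 0.29, limma adjusted p = 0.266). It was -0.27 without the second array labelled Bmi1, -0.96 without the first, -0.37 without control array 2 and -0.86 without control array 1. Kcnip1, with signals of 8.6 to 21.1, and Kcnip2, with 0.6 to 11.9, were dim, at log2 differences of -0.11 (SE 0.23) and -0.16 (SE 0.22). The Kv4 pore Kcnd2 and its partner Kcnip3 thus stood on opposite sides of 0 by their kept probes, neither past the adjusted test.

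Kcne1l, a single-pass subunit of the KCNE class encoded on chromosome X, read 262 and 165 on the controls and 128 and 104 on the arrays labelled Bmi1. The groups did not overlap, but control array 1, the array with Xist signal, stood apart from the other 3. The log2 difference was -0.42 (SE 0.26, limma adjusted p = 0.392) and -0.07 without control array 1 and -0.77 without control array 2, and the part of the X chromosome in it was not tested. Kcnmb4 had a log2 difference of -0.29 (SE 0.27, limma adjusted p = 0.570) by its brighter probe and -0.43 (SE 0.23) by the other. Leaving out 1 array moved the former between -0.56, without the first array labelled Bmi1, and -0.02, without the second. Outside the channels proper, Kcnrg stood at 0.20 (SE 0.20). Kcnq1ot1 read 32.7 and 62.3 on the controls and 75.2 and 22.5 on the others, so that the arrays labelled Bmi1 held both its highest and its lowest value, and its log2 difference was 0.21 (SE 0.37).

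**Figure D4:**
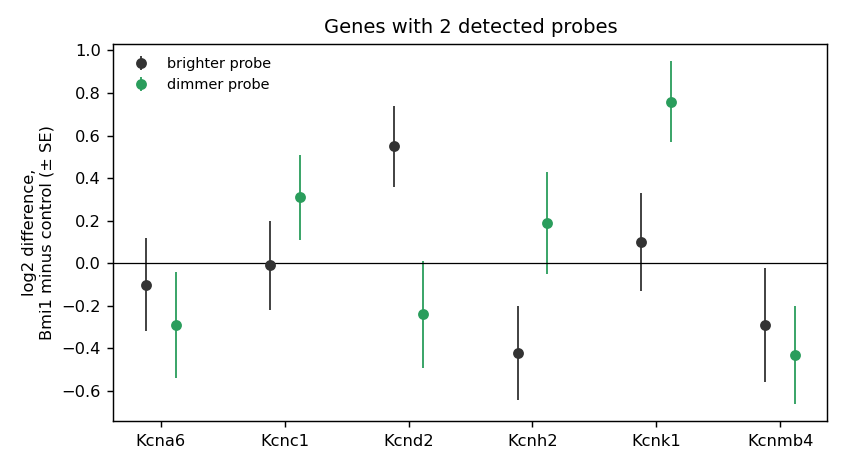
Log2 difference (arrays labelled Bmi1 minus labelled control, ± SE of the limma fit, 2 arrays per group) of both probes of the 6 Kcn genes with 2 detected probes; black is the brighter probe, which stands for the gene, and green the dimmer. Kcna6 and Kcnmb4 have both probes on the same side of 0, Kcnk1 has probes of unequal size, and Kcnc1, Kcnd2 and Kcnh2 have probes of opposite sign.

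In all, 6 Kcn genes had 2 detected probes, and in 3 of them (Kcnc1, Kcnd2 and Kcnh2) the probes had opposite signs. The second Kcnc1 probe was dim, at 3.5 and 1.9 on the controls and 7.9 and 9.8 on the others, with a difference of 0.31 (SE 0.20) that did not pass. The probes of Kcna6 stood at -0.10 and -0.29, both with overlapping groups after normalization. In signal the groups of the dimmer probe did not overlap, at 719 and 620 on the controls and 602 and 338 on the others. Values for Kcn genes with a single detected probe have no such check.

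Genes that work beside the potassium channels were described from a list of 52 partners and other ion-transport genes. Of the 45 with a probe, 25 were detected. Relative to the controls, 8 were higher and 17 lower, where 50.9% of all features were higher. Their median log2 difference was -0.05, and 0 passed with limma at an adjusted p under 0.05. At an unadjusted p under 0.05 there were 2 higher and 1 lower, next to 12.2% and 9.76% of all features. The 3 of smallest p among the higher were Cacna2d1, a calcium channel subunit, at 0.85 (SE 0.23), Ank3, the scaffold of the axon initial segment, at 0.53 (SE 0.19), and the sodium channel Scn1a at 0.36 (SE 0.24). Among the lower they were Dpp6, an auxiliary subunit of Kv4 channels, at -0.84 (SE 0.44), Cntnap2, which clusters Kv1 channels beside the node, and the calcium channel subunit Cacnb1. Cntnap2 and Cacnb1 were not detected on either array labelled Bmi1, with limma adjusted p of 0.135 and 0.343. The means of the controls were at least 1.51-fold and at least 1.03-fold higher, bounds that leave out the spread of the replicates. Dpp6 read 357 and 345 on the controls and 288 and 72.3 on the arrays labelled Bmi1, with the second of these far below the other 3 arrays. The sulfonylurea receptors Abcc8 and Abcc9, partners of the ATP-sensitive inward rectifiers Kcnj11 and Kcnj8, were not detected on 2 or more arrays, and neither were these pores.

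Markers of other cell types are given beside the Kcn values, with 9.76% of all features lower and 12.2% higher at an unadjusted p under 0.05. The summed signal of the 11 detected astrocyte markers was 19600 to 20100 in the controls and 9700 to 12100 in the arrays labelled Bmi1, and 11 of the 11 were lower, 6 at an unadjusted p under 0.05, with a median log2 difference of -0.74. They included Aldoc, Gja1 and Atp1b2. For the 12 detected oligodendrocyte lineage markers it was 26600 to 44200 and 18900 to 25300, with 9 lower, 7 of them at an unadjusted p under 0.05, 3 higher (Cspg4, Pdgfra and Olig1) and a median of -0.91. They included Bcas1 and Gpr17. The 8 detected neuronal markers summed to 4370 to 4400 and 2220 to 3480, with 4 lower, 2 of them at an unadjusted p under 0.05 (Thy1 and Elavl3), and a median of -0.01, while Tubb3, Snap25, Stmn2, Nefl and Nefm were not detected. The 7 detected cell cycle genes summed to 2250 to 3990 and 4040 to 5670, and all 7 were higher, 2 at an unadjusted p under 0.05 (Plk1 and Mcm5), with a median of 0.48. Of 7 endothelial markers 0 were detected, and of 8 microglial markers 2, at summed signals of at most 26.1. Of 9 pericyte and muscle markers 4 were detected (Notch3, Cspg4, Acta2 and Des), at 435 to 614 and 328 to 642. Cspg4 is also counted among the oligodendrocyte lineage markers, and Pdgfrb, Rgs5, Anpep, Tagln and Myh11 were not detected. None of these genes passed with limma after adjustment. Their part in the Kcn values was not tested, and in such bulk samples fewer cells of a type cannot be told apart from less RNA per cell.

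The sequence upstream of the genes was compared with that of other genes on the array, since polycomb complexes in mammals are known to gather at promoters rich in CpG. RefSeq promoters (GRCm38.p6) matched 67 of the 88 Kcn genes, and the 250 bases before the most upstream start of each were read. In that stretch 8 of the 26 detected Kcn genes (30.8%) had a CpG ratio, observed over expected from the base composition, of 0.6 or more, and so did 12 of the 41 not detected (29.3%). Over all named genes of the array with a promoter the share was 69.4% for detected and 25.5% for undetected genes. Taking any annotated start of a gene in place of the most upstream raised the share to 46.2% for the detected Kcn genes and to 73.2% for all detected genes. These shares are a description, with no test, and the most upstream start need not be the one in use.

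**Figure D5:**
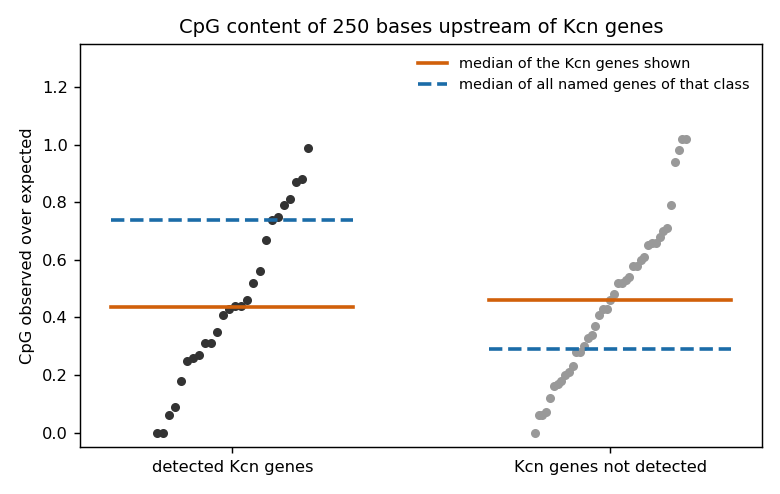
CpG ratio (observed over expected) in the 250 bases upstream of the most upstream start, for 26 detected and 41 undetected Kcn genes, 1 point per gene in rising order. Solid lines are the medians of the points, 0.44 and 0.46, and dashed lines those of all detected (0.74) and undetected (0.29) named genes of the array.

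The upstream stretches of 4 genes are shown, picked for their CpG content, 3 of them CpG-rich and 1 without CpG. A link of CpG content to the differences between the groups was not tested. Kcnab2 (chr4:152477550-152477799, minus strand, CpG ratio 0.87), Kcnk5 (chr14:20181783-20182032, minus strand, 0.79) and Kcnd2 (chr6:21215096-21215345, plus strand, 0.75) have the highest ratios of the 6 genes with an unadjusted p under 0.05, while ratios over all 67 Kcn genes ran up to 1.02. Of the others of these 6, Kcnh6 had a ratio of 0.67, Kcnk2 of 0.44 and Kcnj16 of 0.27. Kcnk1 (chr8:125994852-125995101, plus strand) holds no CpG, and its dimmer probe also had an unadjusted limma p under 0.05. Each is printed 5′ to 3′ on the strand of the gene and ends at the base before the annotated start, with CpG in capitals.
Kcnab2: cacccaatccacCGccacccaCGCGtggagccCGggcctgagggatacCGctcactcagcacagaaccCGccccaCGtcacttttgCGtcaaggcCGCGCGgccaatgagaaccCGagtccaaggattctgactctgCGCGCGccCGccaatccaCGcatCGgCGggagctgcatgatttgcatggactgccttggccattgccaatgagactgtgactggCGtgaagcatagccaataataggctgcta
Kcnk5: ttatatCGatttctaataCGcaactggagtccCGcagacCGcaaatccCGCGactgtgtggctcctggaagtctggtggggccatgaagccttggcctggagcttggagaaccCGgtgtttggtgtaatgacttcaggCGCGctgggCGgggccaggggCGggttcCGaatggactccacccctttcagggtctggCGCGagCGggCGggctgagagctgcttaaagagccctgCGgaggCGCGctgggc
Kcnd2: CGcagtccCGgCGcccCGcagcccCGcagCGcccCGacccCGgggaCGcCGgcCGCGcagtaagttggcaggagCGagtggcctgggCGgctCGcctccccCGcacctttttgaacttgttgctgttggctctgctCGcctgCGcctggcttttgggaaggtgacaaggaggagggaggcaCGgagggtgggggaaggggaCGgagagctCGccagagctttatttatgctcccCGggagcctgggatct
Kcnk1: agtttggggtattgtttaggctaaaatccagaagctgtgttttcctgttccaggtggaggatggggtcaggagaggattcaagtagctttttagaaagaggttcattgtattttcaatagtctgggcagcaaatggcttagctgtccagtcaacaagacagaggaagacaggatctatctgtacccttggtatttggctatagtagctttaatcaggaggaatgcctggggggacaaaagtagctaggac
The Kcnab2 stretch holds 20 CpG, that of Kcnk5 19 and that of Kcnd2 22. Kcnab2 has 3 annotated starts, of which the most upstream is shown. The left part of the element bound by the neuronal repressor REST, TTCAGCACC, was sought on both strands. It was found upstream of 1 of the 67 Kcn genes (1.49%), Kcnh6, and of 0.292% of all promoters. The core of the element, sought as well, was found upstream of 0 of the 67 Kcn genes and of 0.0296% of all promoters. Rest itself was not detected by its probes.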

How the data were processed

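RNA of 4 neurosphere cultures was hybridised as biotinylated cRNA, per the labels' protocols. Per the file headers, the deposited scanner table gives a signal intensity per probe and array, with the background already taken off (31.2 to 33.9% of values per array were 0 or less), and a detection value. The deposited detection column is headed as a p-value per the file headers, but it rose with the signal and was read as 1 minus the p-value. The deposited processed table holds log2 values with equal quantiles, and the submitters' processing notes name lumi, with no settings given in the sources used here.

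Rows without a probe identifier (22) were left out. Signals were corrected and quantile-normalized with neqc (offset 16, log2) of limma 3.58.1 in R 4.3.3. Probes with a detection p under 0.05 on 2 or more arrays were kept (18237). Each gene was represented by its detected probe of highest mean, and unnamed probes stayed single, which gave 12809 features, 10044 of them named genes. Groups were compared with lmFit and eBayes, two-sided, with group as the only term and Benjamini-Hochberg adjustment over all features. Total degrees of freedom were 7.23. The script was tested on simulated data. Differences are arrays labelled Bmi1 minus arrays labelled control. Both remaining scanner columns carry the header 1DT and are called first and second by place.

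Every detected Kcn gene is named. Full statistics went to those with an unadjusted p under 0.05, the 8 largest differences and the 4 highest levels. For the partner list, the 3 smallest p in each direction are given. Members and lists were chosen with earlier results of these data known. Alternatives changed the normalization, background step, offset, filter or probes, or left out an array. In the alternative with no further background correction, signals below 0 were set to 0 and the offset was 50. The number of arrays limits the precision, and the brightness of different probes cannot be compared. No slide or scan date was at hand, which left no batch to test.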

Additional observations from a re-analysis of the deposited data

How the results depend on the processing

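In all alternatives run, 0 Kcn genes had an adjusted p under 0.05. The count at an unadjusted p under 0.05, 6 of 29 with limma, was 13 of 88 with no filter on dim probes (13.3% of all features there), 2 to 5 when 1 array was left out, lowest without control array 1, and 4 to 7 in the other alternatives. When all arrays had to pass a detection p under 0.01, 16 Kcn genes were detected. The median difference of the Kcn genes was 0.15 with median scaling, which moved that of all features to 0.13, and -0.13 to 0.11 when 1 array was left out.

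With the processed table and its own group names, 28 of 29 genes had the opposite sign, by construction of its swapped names, at log2 differences of Kcnab2 -1.03, Kcnk5 -0.57, Kcnk2 -0.50, Kcnd2 -0.51, Kcnh6 -0.26, Kcnj16 -0.30, Kcnip3 0.58, Kcnh2 0.26, Kcne1l 0.36, Kcna2 0.30, Kcnf1 0.12, Kcnk13 -0.14, Kcna10 -0.14, Kcnmb4 0.27, Kcnrg -0.10, Kcnip2 0.10, Kcnv1 0.08, Kcnq1ot1 -0.15, Kcnip1 0.06, Kcna6 0.10, Kcnk1 -0.07, Kcnd3 0.04, Kcnc4 0.05, Kcnq5 -0.02, Kcnn1 0.03, Kcnu1 -0.0083, Kcnc1 0.0074 and Kcnn2 0.01. With the replicate number as a block these differences were the same. Of the 29 genes, 4 then had an unadjusted limma p under 0.05, next to 19.8% of all features. Same-numbered columns did not deviate together (r = -0.20 across 12809 features). With the numbers crossed between the groups, chosen after seeing the data, the count was 5 of 29, next to 25% of all features.

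The other sign changes were of genes whose log2 difference in the main fit lay between -0.25 (Kcnf1) and 0.21 (Kcnq1ot1). With median scaling the values were Kcnf1 0.03, Kcnip2 0.15, Kcnv1 0.11, Kcnip1 0.09, Kcna6 0.02, Kcnd3 0.10, Kcnn1 0.15, Kcnc1 0.09 and Kcnn2 0.30. With no further background correction Kcnk10 stood at -0.0099, and with an offset of 50 the values were Kcnn2 0.0026 and Kcnk10 -0.01. When 1 array was left out, 14 genes crossed 0, and their values ran over Kcnip2 -0.36 to 0.05, Kcnv1 -0.37 to 0.06, Kcnq1ot1 -0.32 to 0.74, Kcnip1 -0.31 to 0.08, Kcna6 -0.26 to 0.05, Kcnk1 -0.13 to 0.32, Kcnd3 -0.26 to 0.11, Kcnc4 -0.18 to 0.06, Kcnq5 -0.14 to 0.24, Kcnn1 -0.36 to 0.25, Kcnu1 -0.20 to 0.22, Kcnc1 -0.16 to 0.14, Kcnn2 -0.26 to 0.25 and Kcnk10 -0.35 to 0.35; the cause was not tested.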

Other observations

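Probes for unrelated genes gave almost the same weak signals on all arrays, a match chosen after its values were seen. The Kcna10 probe read 8.4, 3.4, 8.2 and 12.0 on control arrays 1 and 2 and the first and second array labelled Bmi1, and the Kcnk13 probe 8.1, 3.4, 7.9 and 12.1. Both were detected on 3 of 4 arrays and on none at a detection p under 0.01. The second probe of each gene was not detected on any array.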
